A study of Mus musculus with 25 samples.

Results

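Bone marrow-derived macrophages (BMDMs) treated with IL-13 for 12 h were compared with control BMDMs by RNA-seq. The comparison held 6 of the 25 samples of the series, 3 control BMDM samples and 3 IL-13-treated BMDM samples, which were taken by their labels. Both groups came from C57BL/6 mouse bone marrow differentiated for 4 days in 25 ng/ml M-CSF, so M-CSF was common to control and treated cells. The treated cells received 10 ng/ml IL-13 for 12 h. The control cells received no cytokine beyond M-CSF and were labelled as cultured for 4 h. The difference in culture time cannot be told apart from the effect of the cytokine. Another group, BMDMs given 10 ng/ml IL-4 for 12 h (3 samples), was used where IL-13 was set against IL-4. The methods describe triplicates on independent RNA samples and do not say whether these came from separate mice, so p-values measure the spread between these samples.

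IL-13 is a type 2 cytokine that binds a receptor made of the IL-13 receptor alpha 1 chain and the IL-4 receptor alpha chain. Receptor-bound Janus kinases then phosphorylate STAT6, which enters the nucleus and binds DNA. In macrophages this pathway is known for the state called alternative activation, which is marked by arginine metabolism, chitinase-like proteins and mannose receptor. IL-4 uses the same IL-4 receptor alpha chain and, on macrophages, a second receptor with the common gamma chain.

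Total counts on the sense strand of genes ran from 2577288 to 2776685 in control samples and from 2546453 to 2630310 in IL-13 samples. The ribosomal precursor Rn45s took 31.1% to 39.4% of them and was removed, which left 1556736 to 1776162 counts per sample. Levels are given as CPM, the remaining counts scaled to a common library size with TMM normalization, which corrects for depth but not for gene length, so levels were compared between samples and not between genes. The counts of Rn45s on its antisense strand separated the groups. They were 0.0386% to 0.0543% of all Rn45s counts, sense and antisense, in control samples and 0.00603% to 0.0117% in IL-13 samples. The part of this in the results was not tested. Lars2 and Mir6236, which took many of the remaining counts, were at 94711 to 119768 and 45594 to 48982 CPM in control samples and at 81294 to 97943 and 23405 to 29282 CPM in IL-13 samples. All 10 macrophage markers passed the filter on low counts, and their summed level was 25860 to 27806 CPM in control samples and 23602 to 24526 CPM in IL-13 samples. The T cell markers Cd3d, Cd3e and Cd8a, the B cell marker Cd79a, the erythroid globins and the granulocyte marker Mpo were at 0 in all 6 samples, while other members of these lists were not. Cd22, the 1 B cell marker tested, was called higher (28.6 ± 6.34 CPM in control and 46.9 ± 10.7 CPM with IL-13). Its log2 fold change, 0.7006, lay at the threshold of 0.7. The summed T cell markers were at 202 to 211 CPM in control and 142 to 189 CPM with IL-13, and the summed neutrophil and precursor markers at 162 to 199.6 CPM and 206 to 219 CPM. The summed natural killer and innate lymphoid cell markers were at 674 to 808 CPM in control and 585 to 812 CPM with IL-13. Of these only Il7r was tested, and it was not called. The part of all these markers in the results was not tested. The summed fibroblast and stromal markers, led by Postn, were at 168 to 219 CPM in control samples and 156 to 215 CPM in IL-13 samples, and none of the 4 tested was called. In these bulk samples, fewer cells of a type and less RNA per cell cannot be told apart.

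IL-13 upregulated 276 and downregulated 220 of the 9252 genes tested, which is 2.98% and 2.38% of them. The numbers of members called in each list below are to be read against these shares. A gene was called upregulated or downregulated when the quasi-likelihood test of edgeR gave it an adjusted p (Benjamini-Hochberg) no higher than 0.01 and its log2 fold change reached 0.7 upward or downward. The median log2 fold change over all genes tested was -0.01. The upregulated genes reached larger changes than the downregulated genes. Of the upregulated genes 171 changed by at least 2-fold, 37 by at least 4-fold and 18 by at least 8-fold, whereas of the downregulated genes 109 changed by at least 2-fold, 3 by at least 4-fold and 0 by at least 8-fold. In 275 of the upregulated and 219 of the downregulated genes, the 3 IL-13 samples did not overlap the 3 control samples. The same held for 14.4% of all genes tested in the upward and 15.6% in the downward direction. The number of downregulated genes was 123 with DESeq2.

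**Figure D1:**
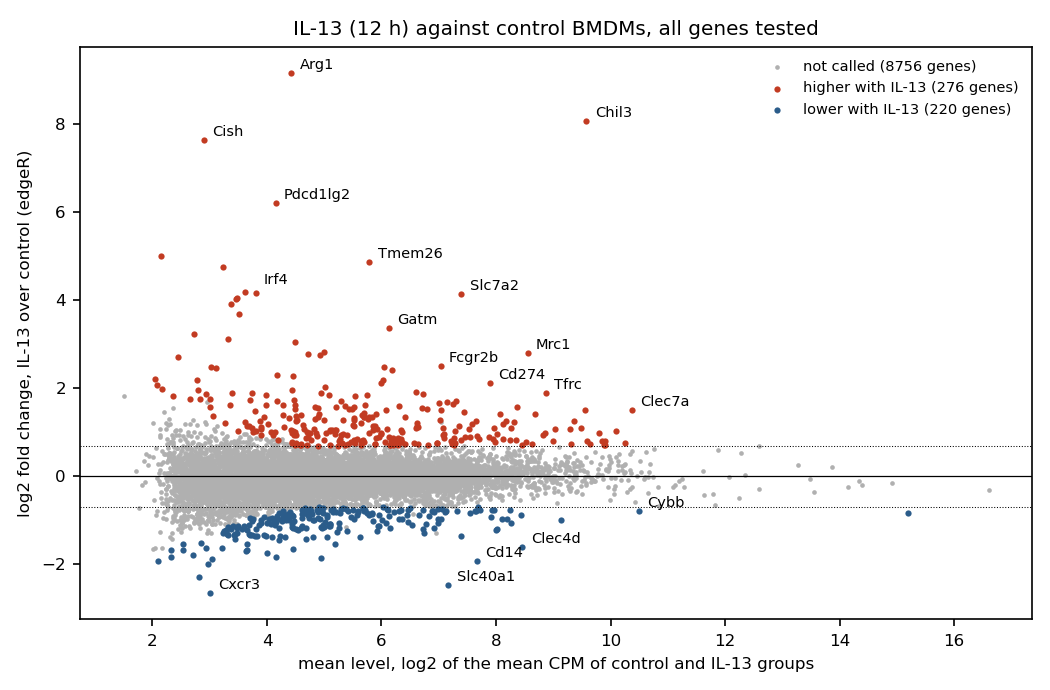
Log2 fold change of IL-13 over control (vertical axis, edgeR) against mean level (horizontal axis, log2 of the mean CPM of both groups) for the 9252 genes tested. Red points are the 276 upregulated and blue points the 220 downregulated genes, dotted lines lie at 0.7 in either direction, and the rises reach farther from 0 than the falls. Arg1 and Cish, with 0 counts in control, are drawn at fitted heights that are set partly by the prior count and are no measure of size.

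The strongest rises were in genes that control BMDMs expressed at or near 0. Arg1, the enzyme that splits arginine into ornithine and urea, had 0 counts in all 3 control samples and was at 47.5, 47.5 and 33.9 CPM in the IL-13 samples. Its 220 counts with IL-13 made it at least 71.1-fold higher, against a floor of 3 counts over the control group. Cish, a STAT-induced inhibitor of cytokine signalling, also had 0 counts in control and was at 18.4, 13.6 and 12.8 CPM with IL-13, at least 24.6-fold higher. Both genes were thus silent at this depth in every control sample and detected in every IL-13 sample.

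Chil3, which encodes the chitinase-like protein Ym1, was at 6.58, 3.65 and 6.55 CPM in control and at 1509, 1547 and 1517 CPM in IL-13-treated BMDMs. Its log2 fold change was 8.07 ± 0.14 (SE, here and below). Slc7a2, the transporter that brings arginine into the cell, was at 15.6, 17.6 and 20.9 CPM in control and at 274, 334 and 349 CPM with IL-13 (log2 fold change 4.14 ± 0.14). Pdcd1lg2, the checkpoint ligand PD-L2, had 2 counts over the control group and 181 with IL-13, a ratio of 87.8 (95% counting interval 24.0 to 731). The 15 largest rises and 15 largest falls were chosen among genes without overlap between groups, so that the groups lie apart in each of them is no result.

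Tmem26, a transmembrane protein, was at 0.599, 3.04 and 7.15 CPM in control and at 111, 89.3 and 120 CPM with IL-13 (log2 fold change 4.86 ± 0.25). Gatm, the first enzyme of creatine synthesis, which uses arginine, rose from 12.4 ± 1.19 to 128 ± 17.5 CPM (mean ± SD, n = 3, here and below; log2 fold change 3.36 ± 0.17). The transcription factors Irf4 and Batf3, which cooperate on DNA in lymphoid and myeloid cells, rose from 1.40 ± 0.914 to 26.5 ± 4.05 CPM and from 1.20 ± 0.613 to 21.2 ± 2.81 CPM. Flt1, a receptor of vascular endothelial growth factor, rose from 1.20 ± 0.0126 to 20.7 ± 2.67 CPM, and F10, the precursor of coagulation factor X, from 1.21 ± 1.06 to 19.4 ± 4.76 CPM. The other rises among the 15 largest were those of Socs1 (log2 fold change 3.68 ± 0.41), Ceacam19 (4.19 ± 0.39) and Mcf2l (3.23 ± 0.49), and of the actin-binding protein Ablim1, with 3 counts over the control group and 94 with IL-13, a ratio of 30.4 (95% counting interval 10.1 to 150).

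The 15 largest falls were smaller. Cxcr3, a receptor for interferon-induced chemokines, was at 14.4, 13.4 and 13.7 CPM in control and at 2.53, 1.70 and 2.22 CPM with IL-13 (log2 fold change -2.65 ± 0.41). Slc40a1, which encodes ferroportin, the exporter of iron from the cell, fell from 246, 257 and 229 CPM to 40.5, 53.7 and 37.8 CPM (log2 fold change -2.47 ± 0.13). Cd14, the coreceptor that hands LPS to Toll-like receptor 4, fell from 299.9, 309 and 353 CPM to 90.5, 90.4 and 72.8 CPM (log2 fold change -1.92 ± 0.11). Pcp4l1 and Itga9 had log2 fold changes between those of Slc40a1 and Cd14.

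The remaining large falls were in genes of varied function. Itga9 (an integrin alpha chain) fell from 12.6 ± 3.44 to 3.08 ± 1.19 CPM, Clec4n (the lectin Dectin-2) from 13.02 ± 2.14 to 3.49 ± 1.46 CPM and Abca9 (a lipid transporter of the ABC family) from 47.9 ± 7.70 to 13.3 ± 1.88 CPM. Cdo1, which oxidizes cysteine, fell from 24.8 ± 6.28 to 7.38 ± 1.63 CPM, Cdkn1c, an inhibitor of cyclin-dependent kinases, from 33.5 ± 10.1 to 10.6 ± 3.95 CPM, and Nlrp3, the sensor of an inflammasome, from 14.003 ± 2.15 to 4.47 ± 0.0486 CPM. The others were Pcp4l1, Gm20594, Pou6f1, Adgb, Cgnl1 and the small nucleolar RNA Snora78, with log2 fold changes from -2.28 to -1.63. The calls of Cgnl1 and Snora78 were not held by every set of samples. That of Cgnl1 ended without control replicate 1 (adjusted p = 0.0134, edgeR), and that of Snora78 without control replicate 1, control replicate 3 or IL-13 replicate 3 (adjusted p up to 0.0225, edgeR). The calls of Cgnl1, Snora78 and Nlrp3 were also lost with DESeq2.

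**Figure D2:**
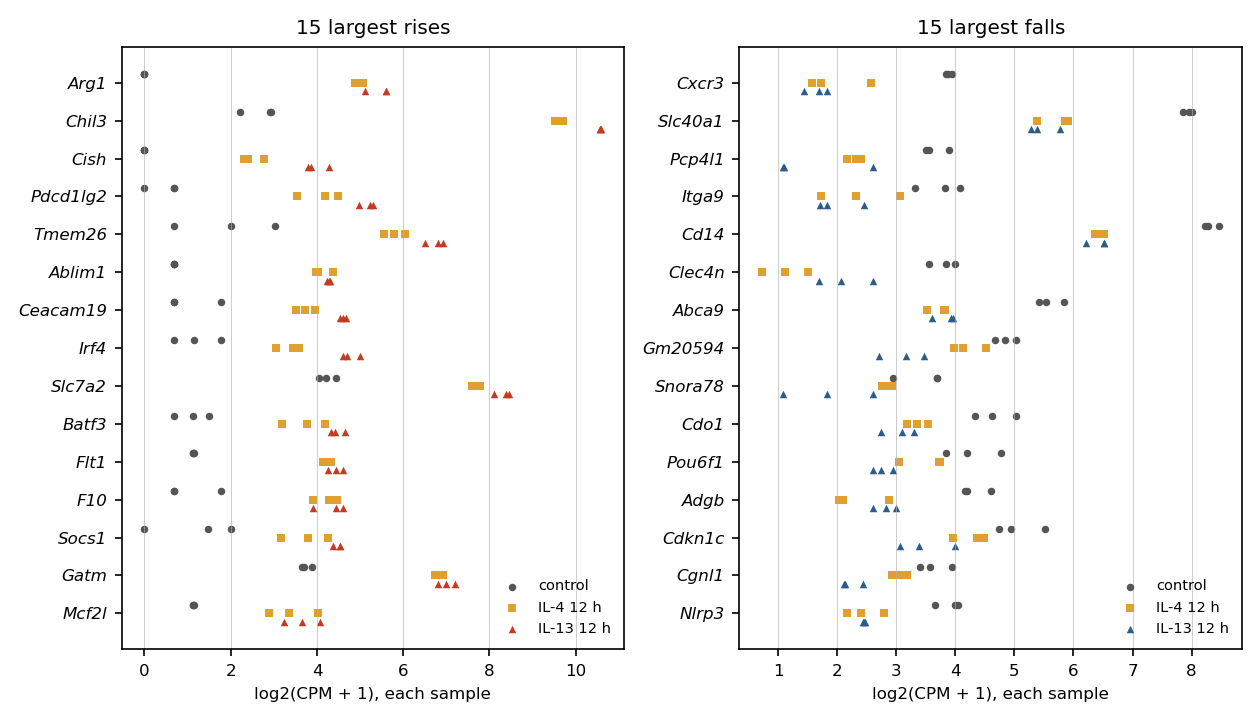
Level of the 15 genes with the largest rises (left) and the 15 with the largest falls (right) in each sample, as log2(CPM + 1), for control (grey circles), IL-4 12 h (yellow squares) and IL-13 12 h (red or blue triangles), 3 samples each. Genes were chosen among those whose IL-13 and control samples do not overlap, and Chil3 moves from 3.65 to 6.58 CPM up to 1509 to 1547 CPM.

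STAT factors bind short palindromes of the form TTC, a spacer and GAA, and STAT6 is known for a preference for a spacer of 4 bases over 3. Promoter windows of 300 bases, from 250 bases before to 50 bases after a gene's start (RefSeq, GRCm38.p6), were found for 13 of the 15 genes with the largest rises. Arg1 and Slc7a2 had no window. The motifs searched were TTCNNNGAA and the same letters with 1 more N in the spacer. Each reads the same on both strands, and no match of one overlapped a match of the other in these windows. One or the other was found in 8 of the 22 windows of the 13 genes (36.4%), compared with 14.6% of all 32851 windows and 11.5% of the windows of genes tested. Over all upregulated genes with a window the share was 15.5%, and over all downregulated genes it was 11.2%. Of the 22 windows, 3 held the motif with the 4-base spacer (13.6%) and 5 that with the 3-base spacer (22.7%). Over all windows, these shares were 6.95% and 8.30%. All of these shares are a description of letters in a window and no test was run on them. The 4 windows shown are examples from the 8 genes that hold a match, which is printed in capitals. They belong to the 4 genes with the highest fitted log2 fold changes among the 13.

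Chil3, chr3:106167515-106167814, minus strand: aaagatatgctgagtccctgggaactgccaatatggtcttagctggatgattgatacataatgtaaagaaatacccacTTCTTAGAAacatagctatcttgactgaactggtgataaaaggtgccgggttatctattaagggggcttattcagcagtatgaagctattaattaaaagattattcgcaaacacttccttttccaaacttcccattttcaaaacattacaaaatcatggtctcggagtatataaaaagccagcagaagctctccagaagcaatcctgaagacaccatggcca
Cish, chr9:107296409-107296708, plus strand: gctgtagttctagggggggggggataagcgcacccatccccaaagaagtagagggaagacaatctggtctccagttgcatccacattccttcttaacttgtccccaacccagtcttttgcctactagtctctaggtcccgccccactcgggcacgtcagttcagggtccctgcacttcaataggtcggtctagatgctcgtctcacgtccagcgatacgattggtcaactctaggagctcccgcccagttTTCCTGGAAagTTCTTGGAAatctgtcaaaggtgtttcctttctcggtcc
Tmem26, chr10:68723496-68723795, plus strand: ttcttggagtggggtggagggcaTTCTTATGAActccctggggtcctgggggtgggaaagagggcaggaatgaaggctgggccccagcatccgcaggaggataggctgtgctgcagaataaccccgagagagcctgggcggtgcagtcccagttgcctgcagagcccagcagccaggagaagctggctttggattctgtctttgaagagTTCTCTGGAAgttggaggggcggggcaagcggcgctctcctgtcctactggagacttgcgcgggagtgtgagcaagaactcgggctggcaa
Pdcd1lg2, chr19:29410669-29410968, plus strand: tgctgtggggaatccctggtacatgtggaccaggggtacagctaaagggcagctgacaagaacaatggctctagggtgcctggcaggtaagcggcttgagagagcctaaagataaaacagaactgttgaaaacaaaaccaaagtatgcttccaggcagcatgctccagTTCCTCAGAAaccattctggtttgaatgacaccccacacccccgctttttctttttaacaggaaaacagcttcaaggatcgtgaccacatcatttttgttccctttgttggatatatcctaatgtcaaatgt

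Counted from 1 at the 5′ end of the window, with the gene's start at 251, the match of Chil3 begins at 79 and that of Pdcd1lg2 at 169. Tmem26 holds 2 matches, at 24 and 210, both with the 4-base spacer. Cish holds 2 matches with the 3-base spacer, at 251 and 262, so that both lie just inside the annotated start. Batf3, Ceacam19, Ablim1 and Mcf2l also held a match in 1 window each, whereas the windows of Irf4, Socs1, Flt1, F10 and Gatm held neither motif.

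Of the receptor chains, Janus kinases and STAT factors that carry the IL-13 signal, 12 were tested and only Jak2 was called. Jak2, a kinase that the IL-13 and several cytokine receptors use, was at 71.8, 68.7 and 62.0 CPM in control and at 203, 216 and 229 CPM with IL-13 (log2 fold change 1.68 ± 0.11). The IL-13 receptor chain Il13ra1 was at 46.1 ± 10.9 CPM in control and 32.8 ± 5.55 CPM with IL-13 (adjusted p = 0.0425, edgeR) and Il4ra at 120 ± 10.6 and 111 ± 2.89 CPM. Stat6 was at 297 ± 10.7 CPM in control and 297 ± 19.95 CPM with IL-13. The log2 fold changes of Jak1, Tyk2, Il2rg, Stat2, Stat3, Stat5a and Stat5b lay between -0.12 and 0.42 and none was called. Of 16 inhibitors of this pathway, 3 were called upward: Cish, Socs1 (from 1.61 ± 1.53 to 21.3 ± 1.46 CPM) and Socs2 (from 2.40 ± 0.578 to 13.8 ± 0.200 CPM), all of which encode SOCS-family proteins. The median log2 fold change of the 16 was -0.07.

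Among 24 markers of alternative activation, 12 were tested, 7 were upregulated and 2 downregulated, and their median log2 fold change was 1.67. This median depended on the filter. A stricter filter, which kept a gene only if each sample reached 10 counts, left 8 markers. Of these, 3 were upregulated and 2 downregulated, with a median of 0.13. Such a filter removes genes at or near 0 in control, such as Arg1. Besides Arg1, Chil3, Pdcd1lg2 and Flt1, the 7 upregulated markers were Mrc1, Matk and Clec7a. Mrc1, the mannose receptor, was at 102, 94.8 and 86.4 CPM in control and 594, 676 and 699 CPM with IL-13 (log2 fold change 2.80 ± 0.10). Matk, a kinase related to Csk, had a log2 fold change of 1.84 ± 0.16. Clec7a, which encodes the beta-glucan receptor Dectin-1, was at 710, 676 and 690 CPM in control and 1588, 2116 and 2179 CPM with IL-13. The scavenger receptor Stab1 was at 452 ± 5.05 CPM in control and fell to 245 ± 22.9 CPM. Vegfa was called downward (log2 fold change -0.94 ± 0.21), a call that ended without control replicate 3 or IL-13 replicate 3 (adjusted p up to 0.0533, edgeR). Widely used markers that did not pass the filter stayed near 0 in both groups. Retnla had 0 counts in control and at most 1.11 CPM in an IL-13 sample, Mgl2 at most 0.599 and 2.26 CPM, Ccl22 at most 0.596 and 1.90 CPM, and Ccl17 at most 0.599 and 0 CPM. Cdh1, the adhesion molecule E-cadherin, also untested, was at 0 in control and at 3.80, 3.39 and 3.89 CPM with IL-13.

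Among 49 transcription factors of macrophage activation, 12 were upregulated and 2 downregulated, with a median log2 fold change of 0.16. Egr2, an immediate early zinc finger factor, rose from 23.3 ± 7.32 to 107 ± 11.8 CPM and Nfil3, a repressor of the bZIP family, from 6.62 ± 1.67 to 45.9 ± 2.30 CPM. Bhlhe40, a basic helix-loop-helix repressor, rose from 68.7 ± 9.05 to 194 ± 27.4 CPM, and Myc from 13.4 ± 4.71 to 32.3 ± 5.65 CPM. Mitf and Tfec, which belong to the family that drives lysosomal genes, rose by 0.91 ± 0.10 and 1.96 ± 0.24 on the log2 scale. Pparg, the fatty acid-sensing nuclear receptor, rose from 39.1 ± 5.34 to 82.1 ± 8.46 CPM. Klf9, Atf4 and Klf10 completed the rises, the last of them by a log2 fold change of 0.72 ± 0.13, which fell to as low as 0.68 without control replicate 1, control replicate 3 or IL-13 replicate 1 and so ended the call of Klf10. Nfkbiz, a coactivator of NF-κB, fell from 22.2 ± 3.85 to 8.66 ± 2.21 CPM. Fos was called downward (log2 fold change -1.35 ± 0.29) but not without control replicate 3, its highest control sample (adjusted p = 0.0394, edgeR), nor with DESeq2 (adjusted p = 0.0107). Of 7 interferon regulatory factors besides Irf4, Irf1 alone was called, at 49.3 ± 5.88 CPM in control and 91.3 ± 11.3 CPM with IL-13. The myeloid master regulator Spi1 was at 285 ± 11.04 and 283 ± 7.79 CPM.

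**Figure D3:**
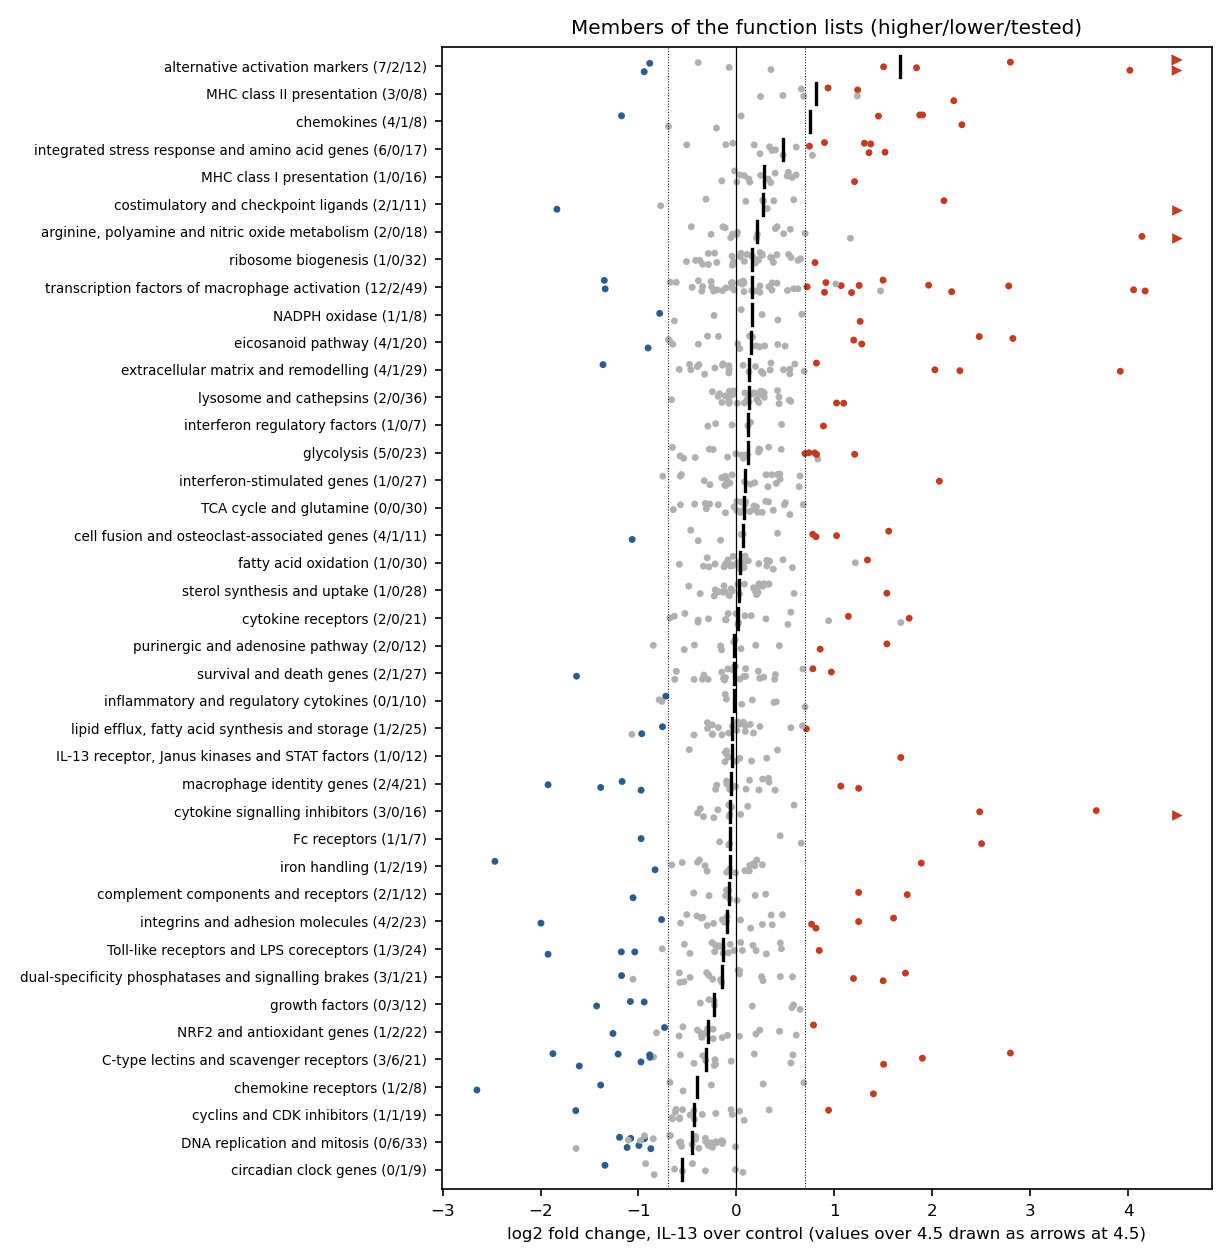
Log2 fold change of IL-13 over control for each tested member of the 41 function lists, ordered by the list median (black bar). Red points were upregulated, blue downregulated and grey not called, values over 4.5 are drawn as arrows at 4.5, dotted lines lie at 0.7 in either direction, and labels give the numbers upregulated, downregulated and tested. Alternative activation markers have the highest median (1.67) and circadian clock genes the lowest (-0.55). Under the stricter filter of 10 counts in each sample, the median of alternative activation markers was 0.13, below that of MHC class II genes (0.67).

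Genes of antigen presentation by MHC class II lay above control as a group. All 8 tested members had positive log2 fold changes, with a median of 0.81, compared with 4490 positive values among the 9252 genes tested. The call was met by 3 of the 8: Ciita, the master activator of the class II genes (1.40 ± 0.906 to 6.86 ± 1.34 CPM), H2-DMa (7.20 ± 2.12 to 17.2 ± 2.85 CPM) and H2-Ab1 (15.2 ± 3.35 to 29.3 ± 6.64 CPM). Each of the calls of Ciita, H2-DMa and H2-Ab1 ended without control replicate 1, that of Ciita also without control replicate 2 and that of H2-Ab1 also without IL-13 replicate 2 (adjusted p up to 0.0227, edgeR). Ctss, the protease that processes the invariant chain, was not called (9091 ± 156 CPM in control and 10789 ± 618 CPM with IL-13). The number called was 0 without control replicate 1, 5 without IL-13 replicate 3 and 1 with DESeq2, whereas the median stayed between 0.69 and 0.98 when a sample was left out. Under the stricter filter of 10 counts in each sample, 6 genes were tested, 1 was called and the median was 0.67. Cd74, the invariant chain, was at 52.1, 52.9 and 50.05 CPM in control and 95.6, 84.8 and 66.2 CPM with IL-13, just under the fold change threshold (log2 fold change 0.66 ± 0.14). Among 16 MHC class I genes, 1 was called, the immunoproteasome subunit Psmb10 (59.7 ± 0.755 to 138 ± 21.1 CPM). B2m, the class I light chain, was at 1066 and 1528 CPM on average (log2 fold change 0.52).

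Of 11 costimulatory and checkpoint ligands, 2 were upregulated, and both were ligands of the inhibitory receptor PD-1. Cd274, which encodes PD-L1, was at 89.8, 95.4 and 81.6 CPM in control and 396, 367 and 397 CPM with IL-13 (log2 fold change 2.12 ± 0.10), and Pdcd1lg2 encodes PD-L2. Icosl, the ligand of the costimulator ICOS, was called downward from 7.81 ± 0.0817 to 2.15 ± 0.442 CPM. Its adjusted p rose to as much as 0.0230 (edgeR), and the call ended, without any 1 of the 3 control samples, IL-13 replicate 2 or IL-13 replicate 3.

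Chemokines were changed in both directions. Of the 8 tested, 4 CC chemokines were upregulated: the monocyte attractants Ccl7 (6.00 ± 1.55 to 30.01 ± 2.04 CPM) and Ccl2 (5.599 ± 1.89 to 21.1 ± 4.27 CPM), Ccl6 (45.5 ± 4.63 to 166 ± 12.1 CPM) and Ccl9 (92.6 ± 15.8 to 253 ± 23.7 CPM). Ccl3, an inflammatory CC chemokine, fell from 33.5 ± 6.31 to 14.96 ± 4.54 CPM. Of 8 chemokine receptors, Ccr1 rose from 13.2 ± 2.12 to 35.0 ± 2.02 CPM, and Cx3cr1, the fractalkine receptor, fell together with Cxcr3, from 43.7, 52.3 and 47.7 CPM to 20.3, 15.3 and 19.5 CPM. Inflammatory and regulatory cytokines were mostly near 0 or not called, with Tnf the only call among 10 tested. Tnf was at 31.7, 31.0 and 31.6 CPM in control and 19.6, 18.7 and 18.9 CPM with IL-13 (log2 fold change -0.72 ± 0.19). Its call ended without any 1 of the 3 control samples, IL-13 replicate 2 or IL-13 replicate 3 (adjusted p up to 0.0256, edgeR). Of 21 cytokine receptors, Il6st, the shared gp130 chain, rose from 102 ± 5.10 to 225 ± 23.3 CPM and Il1rl2, the IL-36 receptor, from 3.61 ± 1.84 to 12.4 ± 2.996 CPM. Csf2rb, the common beta chain of the GM-CSF, IL-3 and IL-5 receptors, rose from 406 ± 12.4 to 850 ± 60.6 CPM.

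Receptors for bacterial products were lowered in part. Of 24 Toll-like receptors and LPS coreceptors, Cd14, Tlr2 and Tlr9 were downregulated and Tlr8 was upregulated. Tlr2, which senses bacterial lipopeptides, was at 86.8, 93.6 and 116 CPM in control and 48.1, 39.6 and 43.9 CPM with IL-13. Tlr8 moved the other way, from 200.4 ± 3.60 to 359.9 ± 27.8 CPM. Tlr9 was called downward from 24.0 ± 2.53 to 11.7 ± 4.28 CPM, but not without control replicate 1 or IL-13 replicate 2 (adjusted p up to 0.0383, edgeR), nor with DESeq2 (adjusted p = 0.0286). Tlr4 itself was at 184 CPM in control and 252 CPM with IL-13 (log2 fold change 0.46).

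C-type lectins and scavenger receptors were divided, with 3 of 21 upregulated and 6 downregulated. Mrc1, Clec7a and Clec4a3 rose, the last of them from 13.04 ± 2.99 to 48.8 ± 1.41 CPM. Clec4d, a receptor for mycobacterial glycolipid, was at 527, 498 and 565 CPM in control and 162, 184 and 176 CPM with IL-13 (log2 fold change -1.605 ± 0.09). Clec12a, an inhibitory lectin, fell from 359 ± 49.2 to 155 ± 14.96 CPM, and Msr1, scavenger receptor A, from 80.9 ± 3.19 to 43.6 ± 6.55 CPM. Gas6, a bridge between dying cells and the TAM receptors, fell from 386 ± 6.38 to 197 ± 10.4 CPM, and Clec4n and Stab1 made up the 6 falls. Clec4d and Clec4n lie in the same gene cluster as Clec4a3, which moved in the opposite direction. Reads that map to more than 1 place are not in these counts, so related lectins can be undercounted.

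The Fc receptors showed 1 call in each direction among 7 tested (2 upward without control replicate 1, control replicate 2 or IL-13 replicate 3). Fcgr2b, the inhibitory receptor for IgG, was at 32.3, 33.4 and 51.8 CPM in control and 243, 202 and 224 CPM with IL-13 (log2 fold change 2.504 ± 0.13). Fcgr1, the activating high-affinity receptor for IgG, was at 58.7, 61.4 and 63.2 CPM in control and 29.1, 37.9 and 26.1 CPM with IL-13 (log2 fold change -0.97 ± 0.16). Neither receptor overlapped between groups, which also held for 275 of the 276 upregulated and 219 of the 220 downregulated genes. Of 12 complement genes, C3 and Itgax were called upward and C5ar1 downward. C3 rose from 10.0 ± 2.39 to 34.2 ± 12.3 CPM, and C5ar1, the receptor for C5a, fell from 412 ± 28.5 to 199 ± 33.6 CPM. Among 27 interferon-stimulated genes, Zbp1 was the single call (1.602 ± 1.24 to 6.89 ± 2.27 CPM), which ended without control replicate 2, control replicate 3, IL-13 replicate 2 or IL-13 replicate 3 (adjusted p up to 0.0345, edgeR). This single call was 3.70% of the list, near the 2.98% over all genes tested. In the NADPH oxidase, the catalytic subunit Cybb fell from 1823 ± 91.2 to 1058 ± 79.8 CPM, and Hvcn1, the proton channel that supports the oxidase, rose from 388 ± 20.9 to 934 ± 84.0 CPM.

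Of 23 integrins and adhesion molecules, 4 were upregulated and 2 downregulated. Itgb3, the beta 3 integrin chain, rose from 20.2 ± 0.567 to 61.8 ± 5.73 CPM, Cd44, the hyaluronan receptor, from 899 ± 34.5 to 1530 ± 82.4 CPM, and the tetraspanin Cd9 from 558 ± 18.3 to 980 ± 33.4 CPM. Itgax, which encodes CD11c, was at 181, 185 and 147 CPM in control and 486, 295 and 440 CPM with IL-13. The call of Itgax ended without control replicate 1, IL-13 replicate 1 or IL-13 replicate 3 (adjusted p up to 0.0319, edgeR). Itga6 was called downward (log2 fold change -0.76 ± 0.09), and reached -0.68 without control replicate 2 or IL-13 replicate 1, under the threshold. Genes of cell fusion and osteoclasts had 4 calls upward among 11: Cd9, Acp5 (tartrate-resistant acid phosphatase, 15.03 ± 2.73 to 44.3 ± 3.50 CPM), Atp6v0d2 (721 ± 51.8 to 1466 ± 125 CPM) and Tspan5, the last of which lost its call without control replicate 2 or control replicate 3 (log2 fold change down to 0.67). Cd200 fell from 52.1 ± 5.52 to 24.8 ± 2.14 CPM.

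Among 29 genes of extracellular matrix and remodelling, 4 rose and 1 fell. Mmp13, a collagenase, was at 8.38, 7.29 and 6.55 CPM in control and 37.3, 32.8 and 38.9 CPM with IL-13 (log2 fold change 2.28 ± 0.23). The coagulation factor gene F7 rose from 12.6 ± 2.42 to 51.6 ± 3.79 CPM, alongside F10, and Lox, which crosslinks collagen, from 121 ± 17.9 to 213 ± 18.8 CPM. Mmp14, a membrane-bound metalloproteinase, fell from 22.6 ± 4.73 to 8.85 ± 2.65 CPM. Of 12 growth factors, 3 were called downward and 0 upward (1 upward without control replicate 3): Pdgfb (37.3 ± 5.45 to 13.9 ± 2.90 CPM), Igfbp4, a binding protein of insulin-like growth factors (148 ± 18.5 to 70.1 ± 4.56 CPM), and Vegfa. Igf1 was at 1067 CPM in control and 1581 CPM with IL-13, under the fold change threshold (log2 fold change 0.57).

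In the eicosanoid pathway, 4 of 20 genes were upregulated, 2 enzymes and 2 receptors. Ptgs1, the constitutive cyclooxygenase, was at 4.79, 7.90 and 10.7 CPM in control and 56.3, 50.9 and 60.0 CPM with IL-13 (log2 fold change 2.82 ± 0.22). Tbxas1, which makes thromboxane from the cyclooxygenase product, rose from 115 ± 9.36 to 265 ± 34.3 CPM. The receptors Ptgir, for prostacyclin, and Ptger2, for prostaglandin E2, rose from 20.02 ± 1.45 to 112 ± 7.11 CPM and from 13.4 ± 3.29 to 32.8 ± 5.14 CPM. Hpgd, which inactivates prostaglandins, was called downward (23.6 ± 2.99 to 12.5 ± 3.21 CPM), a call that ended without control replicate 2, control replicate 3 or IL-13 replicate 1 (adjusted p up to 0.0333, edgeR). Of 12 purinergic genes, the nucleotide receptors P2ry1 (23.1 ± 7.44 to 67.0 ± 1.89 CPM) and P2ry6 (176 ± 14.1 to 319 ± 2.67 CPM) rose.

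In arginine metabolism, Arg1 and Slc7a2 were the 2 calls among 18 genes, both upward. The enzymes beyond ornithine did not pass, with Odc1, which makes putrescine, at 37.0 ± 3.81 CPM in control and 42.8 ± 1.498 CPM with IL-13. Nos2, the inducible nitric oxide synthase that uses the same substrate, had 0 counts in all 6 samples.

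Of 17 genes of the integrated stress response and of amino acid supply, 6 were upregulated (4 with DESeq2), 0 downregulated and 11 not called, with a median log2 fold change of 0.48. Atf4, the transcription factor of the response, was at 174, 163 and 153 CPM in control and 308, 317 and 290 CPM with IL-13. Asns (asparagine synthesis) rose from 22.2 ± 3.43 to 63.7 ± 5.85 CPM, Phgdh (the first step of serine synthesis) from 16.4 ± 2.85 to 40.6 ± 4.11 CPM and Mthfd2 (mitochondrial folate metabolism) from 32.1 ± 5.51 to 82.1 ± 3.43 CPM. Trib3 and Ddit3 were called upward (log2 fold changes 1.37 ± 0.34 and 0.75 ± 0.21) but lost their calls without control replicate 3, Trib3 also without IL-13 replicate 3 and Ddit3 also without control replicate 1 or IL-13 replicate 2 (adjusted p up to 0.0406 and 0.175, edgeR). Of the 20 cytosolic aminoacyl-tRNA synthetases, a group added after the values were seen, 3 were upregulated (Rars, Yars and Cars) and 16 had a positive log2 fold change. Among all 9252 genes tested, 2.98% were upregulated and 4490 were positive. The summed level of the synthetases was 941 to 960.4 CPM in control and 1122 to 1136 CPM with IL-13.

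In glycolysis, 5 of 23 genes were upregulated and 0 downregulated (1 downward without IL-13 replicate 1 or IL-13 replicate 2). Pfkfb4, a regulator of the phosphofructokinase step, rose from 30.2 ± 7.82 to 69.9 ± 5.61 CPM, and Pfkp, a phosphofructokinase, from 58.3 ± 6.14 to 103 ± 3.51 CPM. Ldha (lactate dehydrogenase), Slc16a1 (a lactate transporter) and Slc2a1 (the glucose transporter GLUT1) had log2 fold changes of 0.74 ± 0.08, 0.80 ± 0.17 and 0.70 ± 0.19, and each lost its call without at least 1 sample. For Ldha that sample was IL-13 replicate 2 (log2 fold change 0.69), for Slc16a1 control replicate 1 (0.68), and for Slc2a1 control replicate 2, control replicate 3 or IL-13 replicate 1 (down to 0.52). None of 30 genes of the tricarboxylic acid cycle and glutamine use was called by edgeR or DESeq2 (11 at an unadjusted p under 0.05, edgeR), with log2 fold changes from -0.64 to 0.68.

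In the lipid lists, 3.57% of sterol genes, 4% of efflux, fatty acid synthesis and storage genes and 3.33% of oxidation genes were upregulated. The shares downregulated were 0%, 8% and 0%. Over all genes tested, 2.98% were upregulated and 2.38% downregulated. Of 28 genes of sterol synthesis and uptake, Dhcr7, the last step of cholesterol synthesis, alone was called (57.3 ± 5.63 to 166 ± 16.8 CPM). Abcd2, which carries very long-chain fatty acids into peroxisomes, was the single call among 30 genes of fatty acid oxidation (48.5 ± 4.69 to 122 ± 21.4 CPM), and Cpt1a, the gate to mitochondrial oxidation, was at 157 ± 4.37 and 171 ± 30.3 CPM. The cholesterol exporter Abca1 was at 369, 326 and 394 CPM in control and fell to 163, 196 and 198 CPM. Abcg1, a second exporter, was called upward at 117 ± 20.6 and 192 ± 27.6 CPM (log2 fold change 0.71 ± 0.11), which ended without control replicate 2, IL-13 replicate 1 or IL-13 replicate 3 (down to 0.60). Mylip, which degrades the LDL receptor, was called downward (-0.76 ± 0.12) and reached -0.70 without IL-13 replicate 1, just under the threshold.

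In iron handling, the importer and the exporter moved in opposite directions. Tfrc, the transferrin receptor that takes up iron, was at 189, 199 and 208 CPM in control and 622, 828 and 757 CPM with IL-13 (log2 fold change 1.89 ± 0.09), while the exporter Slc40a1 fell as given above. Slc11a1, the NRAMP1 transporter that moves iron out of phagosomes, fell from 239 ± 8.78 to 134 ± 11.4 CPM. Ferritin heavy chain, Fth1, was at 4458 and 2822 CPM on average, under the fold change threshold (log2 fold change -0.66). The other 16 of the 19 genes were not called, except that the number downregulated was 4, in place of 2, without IL-13 replicate 1. Of 22 NRF2 and antioxidant genes, Gsr, glutathione reductase, fell from 52.7 ± 9.92 to 21.8 ± 4.66 CPM, Mgst1, a microsomal glutathione transferase, rose from 187 ± 34.4 to 322 ± 30.3 CPM, and catalase, Cat, was called downward except without IL-13 replicate 2, with log2 fold changes from -0.76 to -0.70 as samples were left out.

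Of 36 lysosome and cathepsin genes, 2 (5.56%) were upregulated, compared with 2.98% of all genes tested. Both were subunits of the membrane domain of the proton pump. Atp6v0a1 was at 488, 465 and 425 CPM in control and 1037, 974 and 934 CPM with IL-13, and Atp6v0d2 is given above. The cathepsin Ctsd was at 32530 CPM in control and 29356 CPM with IL-13 (log2 fold change -0.15). Other calls fell in small groups. The phosphatases Dusp4 (35.4 ± 6.30 to 100.1 ± 9.27 CPM) and Dusp2 and the G protein brake Rgs16 were upregulated among 21 signalling brakes, whereas Spry2 was called downward, a call that ended without control replicate 2, control replicate 3, IL-13 replicate 1 or IL-13 replicate 2 (adjusted p up to 0.0206, edgeR). Of 27 survival and death genes, Bcl2a1b (176 ± 14.4 to 345 ± 44.7 CPM), a member of a family of near-identical copies whose counts are uncertain, and Pycard, the inflammasome adaptor (58.5 ± 4.91 to 101 ± 3.61 CPM), rose, and Nlrp3 fell. The shares were 7.41% upregulated and 3.70% downregulated, compared with 2.98% and 2.38% over all genes tested. Of 32 genes of ribosome biogenesis, Gnl3 alone was called (log2 fold change 0.80 ± 0.15), except without IL-13 replicate 2 (0.68). That is 3.13% of them, near the 2.98% over all genes tested.

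Of 21 macrophage identity genes, 2 were upregulated, Itgax and Csf2rb, and 4 downregulated, Cd14, Cx3cr1, Fcgr1 and Maf. Maf, a transcription factor of resident macrophages, was at 177, 168 and 158 CPM in control and fell to 60.8, 74.6 and 87.3 CPM. The M-CSF receptor Csf1r was at 743 ± 74.9 CPM in control and 796 ± 79.3 CPM with IL-13, Cd68 at 959 and 921 CPM, and Adgre1, which encodes F4/80, at 1081 and 1268 CPM.

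Genes of cell division lay below control. All 33 tested genes of DNA replication and mitosis had a negative log2 fold change, with a median of -0.45, and 6 (18.2%) were called downregulated: Racgap1, Bub1b, Kif11, Rrm2, Top2a and Mki67. Over all 9252 genes tested, 4762 were negative and 2.38% were downregulated. Kif11, a mitotic kinesin, was at 28.7, 28.0 and 31.0 CPM in control and 15.2, 13.6 and 12.8 CPM with IL-13, and Mki67, which encodes the proliferation antigen Ki-67, at 35.3, 35.3 and 32.2 CPM and 18.4, 22.05 and 15.6 CPM. The call of Bub1b ended without control replicate 1, control replicate 2, IL-13 replicate 2 or IL-13 replicate 3, and that of Top2a without any 1 of the control samples or IL-13 replicate 2 (adjusted p up to 0.0979 and 0.0681, edgeR). The call of Rrm2 ended without control replicate 2, IL-13 replicate 1 or IL-13 replicate 3, and that of Mki67 without IL-13 replicate 3 (adjusted p up to 0.0177 and 0.0135, edgeR). The number called depended on the samples and the tool, with 3 to 5 when a sample was left out (3 without control replicate 2 or IL-13 replicate 3) and 1 with DESeq2, whereas the median stayed between -0.60 and -0.43. Pcna was at 257 CPM in control and 232 CPM with IL-13 (log2 fold change -0.14). The kinase inhibitor Cdkn1a, p21, rose from 28.6 ± 0.521 to 55.2 ± 4.88 CPM, and Cdkn1c, p57, fell as given above.

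Replication-dependent histone genes, a group taken by symbol and chosen after the values were seen, lay below control in most members. These transcripts lack a poly(A) tail and were kept because libraries were made by depletion of rRNA. Of 47 tested, 17 were downregulated, none upregulated and 45 had a negative log2 fold change, with a median of -0.84. Of all 9252 genes tested, 2.38% were downregulated and 4762 had a negative log2 fold change. The summed level of the 68 histone genes in the files was 1535, 1442 and 1433 CPM in control and 976, 942 and 832 CPM with IL-13, without overlap. With IL-4, set against the same control samples, the sum was 970.1, 941 and 1017 CPM. The number of histone genes called was 9 with DESeq2 and 14 to 20 when a sample was left out. Histone genes are near-identical copies, so their single values are uncertain.

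Circadian clock genes lay below control too, with 1 of 9 positive and a median log2 fold change of -0.55. Among all 9252 genes tested, 4490 were positive. Dbp, a clock output factor, was the single call (14.4 ± 3.80 to 5.68 ± 1.11 CPM), which ended without control replicate 3 or IL-13 replicate 2 (adjusted p up to 0.0369, edgeR) and was also lost with unstranded counts and with DESeq2 (adjusted p = 0.0385). The number of clock genes called was 2 without IL-13 replicate 1 or IL-13 replicate 3. Per1 was at 17.8 ± 1.68 CPM in control and 10.1 ± 3.65 CPM with IL-13, and Per3 at 10.4 ± 0.923 and 5.43 ± 1.21 CPM. Culture time, 4 h in control and 12 h with IL-13, moves with the groups and cannot be told apart from IL-13 in the division, histone and clock genes, as in all others.

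**Figure D4:**
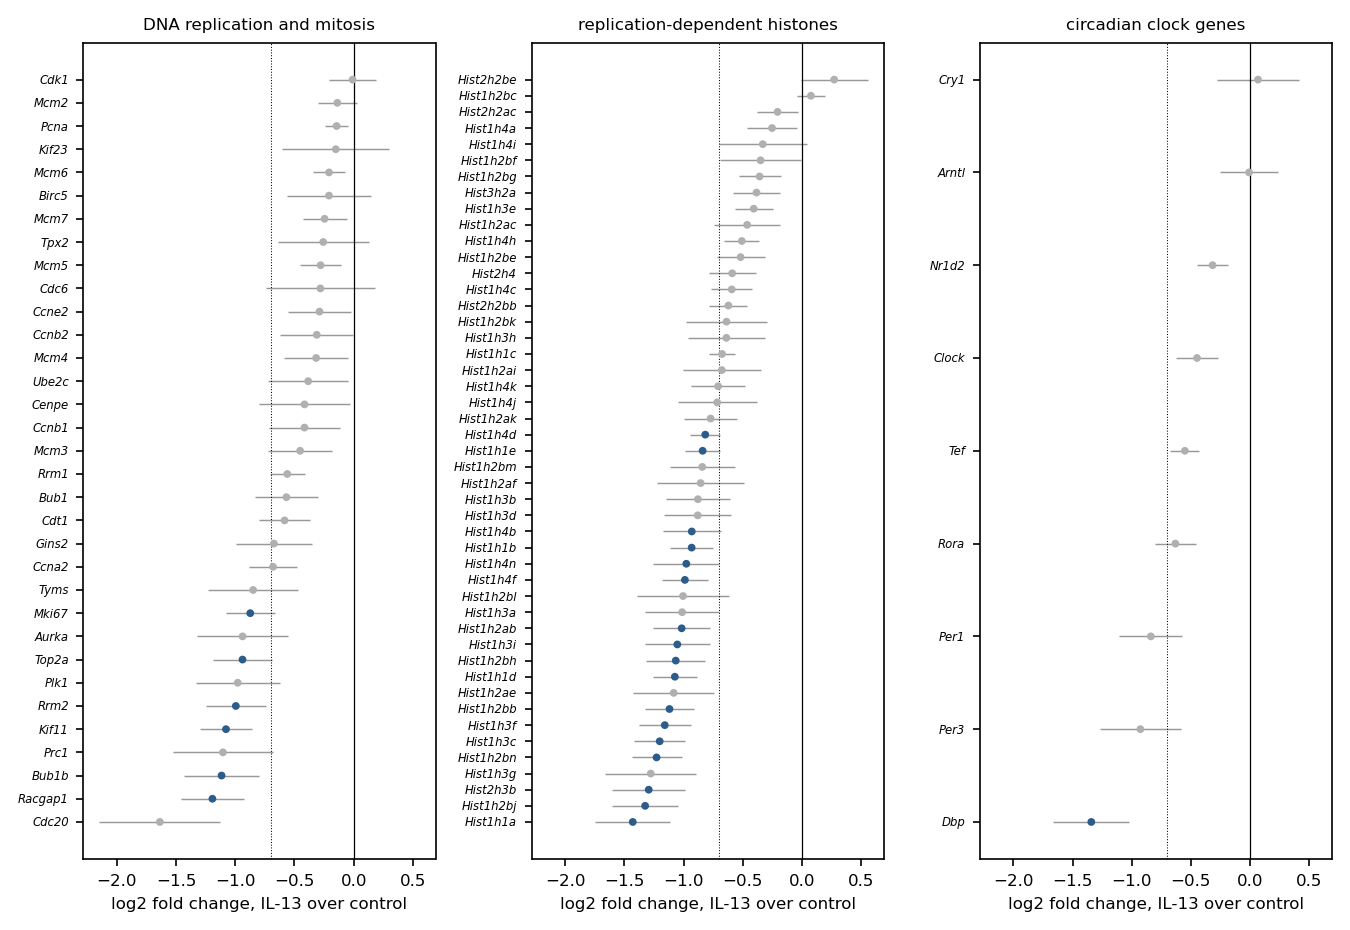
Log2 fold change of IL-13 over control with its standard error (horizontal bars) for each tested gene of DNA replication and mitosis (33), replication-dependent histones (47) and the circadian clock (9). Blue points were downregulated and grey points not called, the dotted line lies at -0.7, and nearly all points lie left of 0, with list medians of -0.45, -0.84 and -0.55.

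IL-13 and IL-4 were compared directly, in the fit of all 9 samples. The control samples entered the filter, the normalization and the estimate of spread, but not the difference itself. Of the 9252 genes, 5 were higher and 1 lower with IL-13 than with IL-4 by the same thresholds (0.054% and 0.0108% of them). Chil3 was at 739, 807 and 830.4 CPM with IL-4 and at 1509, 1547 and 1517 CPM with IL-13 (log2 difference 0.95 ± 0.08). Tmem26 was at 54.0, 64.6 and 46.2 CPM with IL-4 and 111, 89.3 and 120 CPM with IL-13 (0.95 ± 0.15), and Irf4 at 11.02, 9.84 and 7.26 CPM and 23.4, 31.1 and 25.0 CPM (1.49 ± 0.25).

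Pdcd1lg2 was at 16.4 ± 5.50 CPM with IL-4 and 35.2 ± 4.13 CPM with IL-13 (log2 difference 1.08 ± 0.21). Cx3cr1, downregulated by IL-13, was lower still with IL-4, at 4.06, 9.23 and 7.26 CPM compared with 20.3, 15.3 and 19.5 CPM with IL-13 (1.42 ± 0.28). Mir6236 was the gene lower with IL-13, at 46269 ± 4691 CPM with IL-4 and 26869 ± 3076 CPM with IL-13. Its call was lost without IL-13 replicate 1. Mir6236 took many of the counts in these samples, and the origin of its reads was not tested. The count of 5 was 1 without IL-4 replicate 3, 3 without IL-4 replicate 2 or IL-13 replicate 3, and 8 without IL-13 replicate 1. It was 2 with DESeq2 and 6 when only the IL-4 and IL-13 samples were fitted. The difference for Arg1 was 0.49 ± 0.17 on the log2 scale (30.3 ± 2.06 CPM with IL-4 and 43.0 ± 7.83 CPM with IL-13, adjusted p = 0.425, edgeR).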

How the data were processed

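RNA was sequenced after rRNA depletion with a directional kit. The authors trimmed reads with Trimmomatic 0.33, aligned them to mm10 with STAR 2.5.1 and deposited whole-number read counts per gene, unnormalized, with 24411 gene symbols per file. The annotation release was not given in the sources used here. STAR counts only reads that map to 1 place. The column of sense counts was used and Rn45s was removed.

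The 9 samples of the control, IL-4 and IL-13 groups were fitted together in R 4.3.3 with edgeR 4.0.16 (TMM, filterByExpr, robust quasi-likelihood test), with Benjamini-Hochberg adjustment over all genes of a contrast. DESeq2 1.42.0 was an alternative. A standard error is the size of the log2 fold change divided by the root of the F statistic. The cutoffs follow the study. Floors and counting intervals cover counting error only. Python 3.11.15 with SciPy 1.17.1 gave the counting intervals and matplotlib 3.10.9 the plots. Scripts were tested on simulated data.

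Genes described singly are the 15 largest rises and 15 largest falls among called genes without overlap between groups and with a mean of at least 10 CPM in the higher group, the called members of each function list with the highest of the others, and the receptor, Janus kinase and STAT list. Members and lists were chosen with earlier results of these data known. Histones and aminoacyl-tRNA synthetases were added after their values were seen.

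Alternatives were RLE and upper-quartile normalization, DESeq2, 2 other filters, unstranded counts, Rn45s kept, fits of only the 2 groups compared, a replicate block, other thresholds, leaving out each sample, and, added after seeing the data, removal of Lars2 and Mir6236.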

Additional observations from a re-analysis of the deposited data

Results flagged for a closer look

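The 6 genes for which the direct test of IL-13 against IL-4 found a difference were taken for a closer look. The log2 difference, IL-13 minus IL-4, was 0.95 for Chil3, 0.95 for Tmem26, 1.49 for Irf4, 1.08 for Pdcd1lg2, 1.42 for Cx3cr1 and -0.78 for Mir6236 (edgeR adjusted p at most 0.00666). Groups of 3 samples are too small for a test of single outlying samples, so none was run.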

How the results depend on the processing

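Among the 30 genes with the largest changes and the 111 other called list members, none changed direction under any alternative. Cd22 and the synthetases Rars, Yars and Cars were not part of this check. The median of the pathway inhibitors, negative in the report, was 0.03 without IL-13 replicate 1. The number of genes higher and lower with IL-13, 276 and 220, was 123 lower with DESeq2, 108 and 23 when the fold change threshold was made the null hypothesis, and 771 and 719 at an adjusted p of at most 0.05 with no fold change threshold. It was 261 to 286 higher and 181 to 246 lower when a sample was left out, and within 1.5 times under RLE and upper-quartile normalization, the 2 other filters, unstranded counts, Rn45s kept, only the 2 groups compared, and Lars2 and Mir6236 removed. Upper-quartile normalization gave 250 higher and 257 lower. With the replicate block, the numbers were 278 and 220. In their deviations from the group means, same-numbered control and IL-13 samples correlated by 0.0969, 0.0249 and 0.0418. Differently numbered ones correlated by -0.0983 to 0.0554. With 3 samples per group, these values cannot decide whether same-numbered samples were paired. The block changed no call of IL-13 against IL-4.

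The 5 genes higher with IL-13 than with IL-4 were 2 with DESeq2, 0 with at least 10 counts in every sample (fewer genes tested), 0 with the threshold as null hypothesis and 16 with no fold change threshold, and 1 to 8 when a sample was left out. The number of genes lower, 1 (Mir6236), was 0 once Mir6236 was itself removed and 0 with the threshold as null hypothesis. It was 3 with no fold change threshold and 1 to 2 when a sample was left out. Without IL-13 replicate 1, the 1 gene called lower was another, and the call of Mir6236 was lost. Stat6, Stat5b and Tyk2, all near 0 and not called, changed sign. Stat6 was 0.00767 with RLE normalization, 0.0168 with DESeq2, 0.0165 with no filter beyond 1 count, 0.0067 with Rn45s kept, 0.0106 with Lars2 and Mir6236 removed, 0.00415 with only the 2 groups compared, and -0.043 to 0.0523 when a sample was left out. Stat5b was -0.238 to 0.0311 and Tyk2 -0.0472 to 0.115 when a sample was left out. Of the 30 genes with the largest changes, 27 were called under every alternative with both thresholds in which they were tested, which was 16 alternatives for 8 genes and 15 for 22, and of 111 other called list members 81 were. Besides Fos, Tlr9 and Dbp, the calls of Bub1b, Cgnl1, Ciita, Ddit3, H2-Ab1, H2-DMa, Hpgd, Icosl, Mki67, Nlrp3, Racgap1, Rrm2, Slc2a1, Snora78, Spry2, Tnf, Top2a, Trib3, Vegfa and Zbp1 were lost with DESeq2. Apart from the effect of fewer genes or samples, the cause of these differences was not tested. At these depths, genes below the filter could not be tested, and 3 samples per group limit the calls of genes with few counts.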
